A study of Rattus norvegicus with 16 samples.

Results

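Mesenchymal stromal cells (MSCs) from rat bone marrow were kept for 24 h in medium collected from non-polarized macrophages (M0CM) and were compared with MSCs of the same rats kept in D10 control medium. The comparison takes the 4 M0CM libraries and the 4 D10 libraries, 8 of the 16 libraries of the series, and each M0CM library is paired with the D10 library of its rat (rats 2, 3, 4 and 8). All MSCs came from adult female wild type Sprague-Dawley rats and were sorted as CD29+/CD45-. The series also holds 4 libraries of MSCs in polarization medium with LPS and interferon gamma (Pol1) and 4 in medium of inflammatory macrophages (M1CM). They share in the estimate of the spread and are set beside the comparison where stated. D10 was fresh DMEM with 10% serum, whereas M0CM was RPMI with serum in which macrophages had lived and which was thawed before use. The base medium and the products of the macrophages therefore cannot be told apart in any difference between M0CM and D10. Whether each rat's MSCs received medium from that rat's own macrophages is not given in the sources used here.

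Non-polarized macrophages release cytokines, lipids, enzymes and metabolites without an inflammatory stimulus, and MSCs carry receptors for many of these signals. Glycolysis splits glucose into pyruvate, and lactate made from pyruvate leaves the cell through monocarboxylate carriers. Many genes of this route are targets of the hypoxia inducible factors (HIF), which accumulate when the prolyl hydroxylases that mark them for breakdown are slowed. The mitochondrial dismutase Sod2, several chemokines and IκB family members are known targets of NF-κB, the transcription factor that answers to interleukin 1, TNF and bacterial products.

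Library totals were 24055829 to 27863079 counts in M0CM and 25259670 to 31992709 counts in D10. Levels are given as CPM, each library's counts divided by its TMM-scaled total and put on a common scale of 1e6 counts. The share of counts from the mitochondrial genome was 1.22 to 1.72% in M0CM and 1.02 to 1.66% in D10. The 13 MSC markers summed to 5680 to 7540 CPM in M0CM and 5640 to 8070 CPM in D10, and all 13 had counts in every library, which fits the label of the cells. The 10 endothelial markers summed to 5.14 to 24.0 CPM in M0CM and 5.94 to 29.6 CPM in D10. Macrophage markers differed between the conditions and are described with their genes.

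M0CM moved few genes relative to D10. With a term for the rat, 107 genes were higher and 42 lower in M0CM at an adjusted p below 0.05 (edgeR quasi-likelihood test, Benjamini-Hochberg), which is 0.789% and 0.31% of the 13556 genes tested, and 1517 genes had an unadjusted p below 0.05. The median log2 fold change over all genes tested was 0.001. All 107 genes that were higher moved the same way in the 4 rats, and so did 41 of the 42 that were lower, the exception being Cxcl10. The 4 M0CM libraries lay above the 4 D10 libraries for 70 of the 107 genes, against 2.01% of all genes tested. Among the genes that were lower, 7 of 42 had all M0CM libraries below all D10 libraries, against 1.71% of all genes. The calls rest on the same libraries, so these counts describe the called genes and are no separate evidence. Of the 107 genes, 13 passed the filter on low counts only through the M0CM libraries. In size, 60 of the 107 higher and 20 of the 42 lower genes were at or beyond a log2 fold change of 1.

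These counts depended on the rats. Without the term for the rat, 17 genes were higher and 2 lower (0.125% and 0.0148% of those tested). Without rat 2 the counts were 59 higher and 19 lower, without rat 3 they were 73 and 28, without rat 4 they were 7 and 3, and without rat 8 they were 15 and 8. Fitted on the 8 libraries alone with the term for the rat, 378 genes were higher and 304 lower. Of the 59 called genes that are named by rule below, 7 were called without each of the 4 rats in turn, namely Sod2, Ak4, Pdk1, Ctss, Gldn, Crispld2 and Actg2.

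Sod2, the mitochondrial superoxide dismutase, had the smallest p of all genes that rose. It was at 281, 386, 429 and 295 CPM in the M0CM libraries of rats 2, 3, 4 and 8, against 75.9, 108, 77.9 and 50.8 CPM in their D10 libraries. Every M0CM library was above every D10 library. The log2 fold change was 2.17 (standard error 0.20, adjusted p = 0.000381, edgeR), a 4.49-fold rise, and the adjusted p was 0.00188 to 0.0177 with 1 rat left out in turn.

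**Figure D1:**
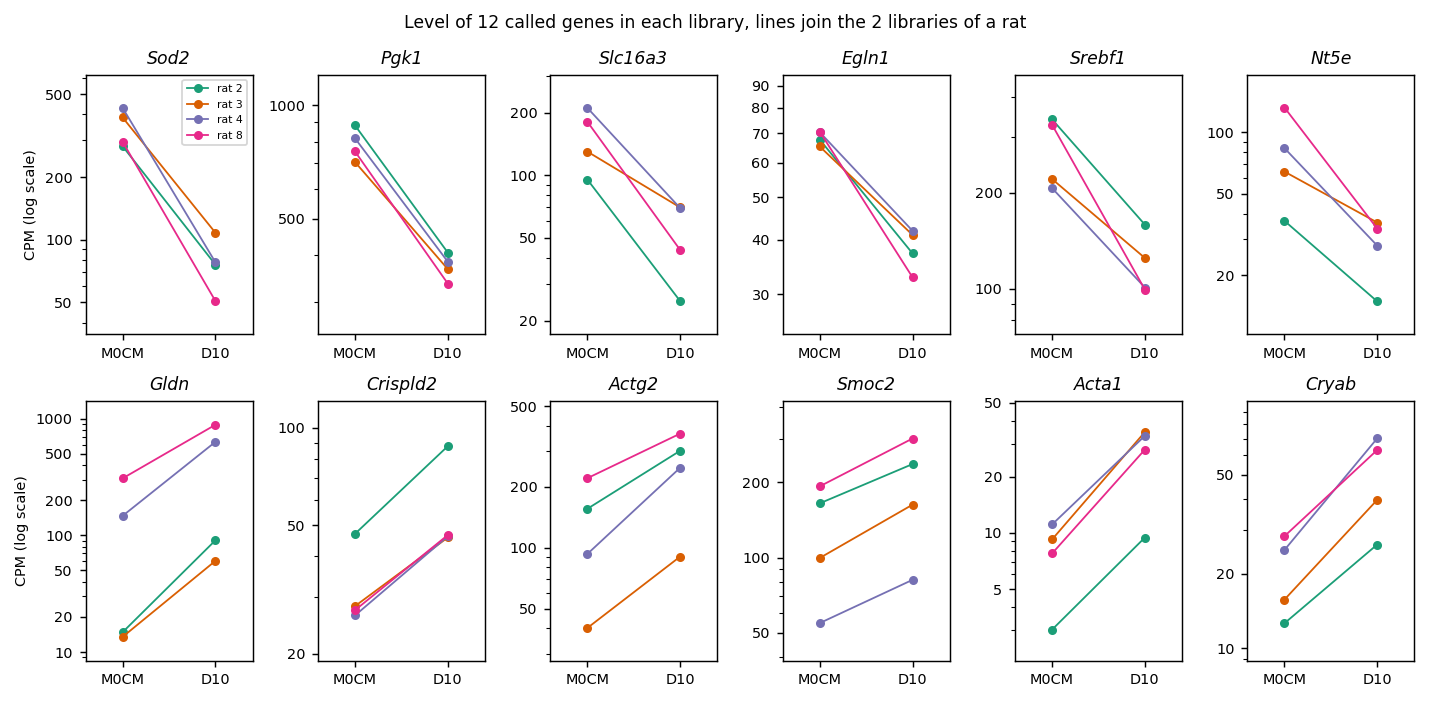
CPM on a log scale of 12 called genes in the 4 M0CM libraries (left in each panel) and the 4 D10 libraries (right), with a line joining both libraries of a rat. The 6 genes of the upper row were higher in M0CM in every rat and their groups do not overlap, while for the 6 genes of the lower row, lower in M0CM in every rat, the rats differ so much in level that the groups overlap.

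Most genes of glucose uptake and glycolysis were called higher. Of 18 tested, 12 rose, 0 fell and 6 did not pass the test in M0CM against D10, the median log2 fold change was 0.65, and the estimates of all 18 were above 0. In 14 of them the M0CM libraries lay above all D10 libraries. Over all genes tested, 0.789% were called higher and 2.01% lay above without overlap. Without the term for the rat 3 of the 18 were called, and without rats 2, 3, 4 and 8 in turn the counts were 7, 13, 0 and 1. The median log2 ratio over the 18 genes was 0.64 in rat 2, 0.54 in rat 3, 0.54 in rat 4 and 0.96 in rat 8.

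Along the route, the rise was widest at its exit. Slc16a3, which encodes the lactate carrier MCT4, was at 95.4, 130, 211 and 181 CPM in M0CM of rats 2, 3, 4 and 8, against 24.8, 70.0, 69.5 and 43.7 CPM in D10. The groups did not overlap, although rat 2 was low in both media. Its log2 fold change was 1.60 (standard error 0.22, adjusted p = 0.00346). At the entry, the glucose transporter gene Slc2a1 was at 111 ± 21.3 CPM in M0CM and 71.6 ± 11.8 CPM in D10 (SD, n = 4 each), with a log2 fold change of 0.64 (standard error 0.13, adjusted p = 0.0336). The hexokinases differed in their calls. Hk2 was higher, with a log2 fold change of 0.47 (standard error 0.09, adjusted p = 0.0186), while Hk1 had 189 ± 8.82 CPM in M0CM and 185 ± 19.4 CPM in D10 and did not pass the test (adjusted p = 0.936).

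In the middle of the route, phosphoglycerate kinase 1 (Pgk1), which makes ATP directly from a glycolytic intermediate, was at 883, 706, 816 and 753 CPM in M0CM, against 406, 367, 384 and 336 CPM in D10. Even the lowest M0CM library was well above the highest D10 library. The log2 fold change was 1.08 (standard error 0.14, adjusted p = 0.00279). Triose phosphate isomerase (Tpi1) was at 204, 206, 259 and 233 CPM in M0CM and 93.5, 112, 123 and 96.8 CPM in D10, and it changed by the same factor as Pgk1 (log2 fold change 1.08 ± 0.15 SE, adjusted p = 0.00391). Pfkl, the liver-type phosphofructokinase, was at 175, 208, 233 and 236 CPM in M0CM and 96.5, 142, 115 and 95.6 CPM in D10 (log2 fold change 0.93 ± 0.12 SE, adjusted p = 0.00327). Its paralog Pfkp had a log2 fold change of 0.22 and did not pass the test (adjusted p = 0.566). Ldha, which turns pyruvate into lactate, was at 1000, 1040, 1350 and 1220 CPM in M0CM and 481, 662, 690 and 488 CPM in D10 (log2 fold change 0.98 ± 0.19 SE, adjusted p = 0.0232). For each of these genes that rose, no M0CM library fell within the range of D10.

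The remaining glycolytic genes that rose were the phosphoglycerate mutase gene Pgam1, the pyruvate kinase gene Pkm, the aldolase genes Aldoa and Aldoc, and the enolase gene Eno1, with log2 fold changes from 0.64 for Aldoa to 1.18 for Aldoc. Per length, Pkm was at 1200 FPKM in M0CM and 689 FPKM in D10, Eno1 at 971 FPKM in M0CM and 599 FPKM in D10, and Ldha at 724 FPKM in M0CM and 356 FPKM in D10. Gapdh (adjusted p = 0.0599), Gpi (0.0561) and Eno2 (0.0716) lay just outside the threshold, and in all 3 the M0CM libraries were above all D10 libraries. Pygl, which releases glucose units from glycogen, rose too, to 91.1, 70.9, 89.1 and 57.8 CPM in M0CM against 54.3, 46.1, 54.1 and 31.1 CPM in D10 (log2 fold change 0.74 ± 0.10 SE, adjusted p = 0.00346, and 0.0196 to 0.0632 with 1 rat left out in turn).

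Some targets of HIF outside glycolysis rose as well. Of 28 tested, 7 rose, 1 fell and 20 did not pass the test, the median log2 fold change was 0.58, and 5 were called higher without the term for the rat. Without rats 2, 3, 4 and 8 in turn, 5, 8, 2 and 2 of them were higher. Over all genes tested, 0.789% were called higher and 0.31% lower. Ak4, a mitochondrial adenylate kinase, was at 20.9, 20.6, 28.2 and 26.0 CPM in M0CM, against 9.07, 12.8, 9.96 and 8.79 CPM in D10, with no overlap (log2 fold change 1.23 ± 0.14 SE, adjusted p = 0.00148). Pdk1, the kinase that keeps pyruvate out of the citric acid cycle, was at 26.9, 30.0, 35.5 and 32.4 CPM in M0CM and 13.5, 19.0, 15.4 and 17.6 CPM in D10 (log2 fold change 0.93 ± 0.12 SE, adjusted p = 0.00327). The mitophagy gene Bnip3 was at 103, 94.8, 99.4 and 96.2 CPM in M0CM and 46.0, 50.1, 47.7 and 54.3 CPM in D10, close to 1 log2 unit apart (0.99 ± 0.14 SE, adjusted p = 0.00391). In each of these genes every M0CM library was above every D10 library, and in Bnip3 the rats differed far less than the media did.

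Egln1 encodes PHD2, the prolyl hydroxylase that marks HIF for breakdown and is itself a HIF target. It was at 67.7, 65.3, 70.4 and 70.6 CPM in M0CM, against 37.2, 41.0, 41.9 and 32.8 CPM in D10 (log2 fold change 0.84 ± 0.12 SE, adjusted p = 0.00491). Its relative Egln3 was lower in level, at 0.797, 2.61, 3.88 and 0.857 CPM in M0CM and 0.0836, 0.451, 0.470 and 0.0317 CPM in D10, and had the larger estimate (log2 fold change 2.98, standard error 0.67) without passing the test (adjusted p = 0.0537). Mif, a cytokine, was at 99.4, 113, 120 and 99.0 CPM in M0CM and 45.0, 37.8, 61.3 and 33.2 CPM in D10 (log2 fold change 1.32 ± 0.20 SE, adjusted p = 0.00577). Fam162a and Higd1a, both genes of mitochondrial proteins, rose by 1.12 and 0.87 on the log2 scale.

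The list did not move as 1 block. Loxl2, which cross-links collagen, fell to 458, 276, 374 and 669 CPM in M0CM, against 593, 460, 483 and 1080 CPM in D10, lower in every rat although the groups overlap (log2 fold change -0.55 ± 0.10 SE, adjusted p = 0.0175, and 0.0475 to 0.167 with 1 rat left out in turn). Vegfa, the endothelial growth factor, had a log2 fold change of 0.29 (adjusted p = 0.456), and Adm, the vasodilator adrenomedullin, had one of 0.81 with a standard error of 0.51 (adjusted p = 0.618). Car9, a membrane carbonic anhydrase and a usual marker of hypoxia, had an estimate of -0.63 (adjusted p = 0.271) and was lower in M0CM in all 4 rats. The nuclear and mitochondrial genes of oxidative phosphorylation showed no calls, with 0 of 29 nuclear members tested and 0 of 13 mitochondrial members called.

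**Figure D2:**
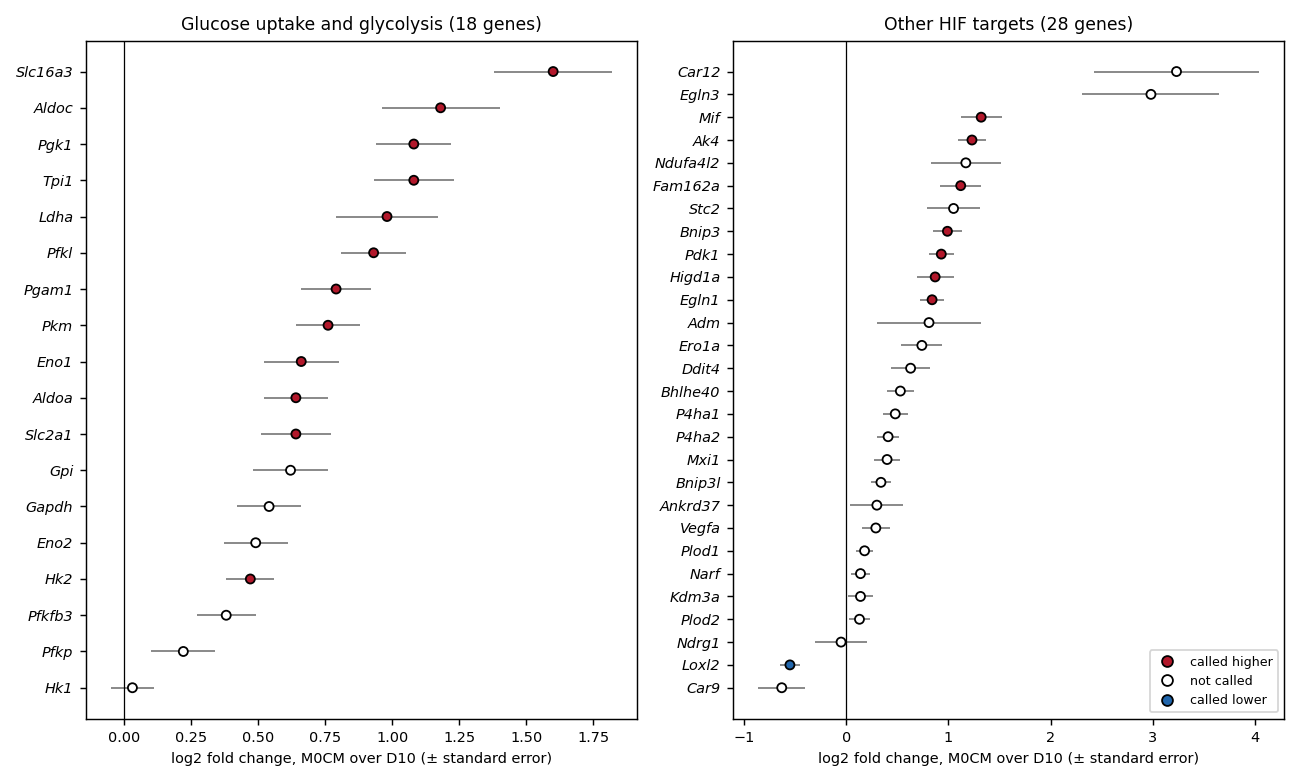
Log2 fold change of M0CM over D10 with its standard error for the 18 tested genes of glucose uptake and glycolysis (left) and the 28 other tested HIF targets (right), red where called higher, blue where called lower and white where not called. All 18 glycolytic estimates lie above 0, 12 of them called, and among the other targets 7 are called higher and Loxl2 is called lower.

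HIF binds DNA at a short core, ACGTG or GCGTG, and the promoters of the called members were searched for both cores on both strands. RefSeq promoters of the build GRCr8, each of 300 bases around the gene's start, were found by a unique symbol for 16 of the 19 members that rose. Of these 16, 12 held at least 1 core (75%), as did 16 of 20 members of both lists that were not called (80%), and 62.1% of the 8762 promoters matched to tested genes. A match is a description of letters, not a binding site. The 5 sequences shown are those of the lactate dehydrogenase and kinase genes with several cores, of Egln1 and Ak4 described above, and of Tpi1 as a gene that rose with no core in its window. They read 5′ to 3′ along the gene, with every core in capitals. The windows are chr1:106507842-106508141 on the plus strand for Ldha, chr3:77113264-77113563 on the plus strand for Pdk1, chr19:69804632-69804931 on the minus strand for Egln1, chr5:121154886-121155185 on the plus strand for Ak4 and chr4:159305039-159305338 on the minus strand for Tpi1.
Ldha: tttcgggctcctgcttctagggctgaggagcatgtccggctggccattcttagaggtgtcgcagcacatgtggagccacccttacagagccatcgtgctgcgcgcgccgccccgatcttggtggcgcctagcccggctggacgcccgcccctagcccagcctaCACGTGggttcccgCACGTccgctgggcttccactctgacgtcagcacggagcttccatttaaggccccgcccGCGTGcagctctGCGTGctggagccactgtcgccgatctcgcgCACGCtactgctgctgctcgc
Pdk1: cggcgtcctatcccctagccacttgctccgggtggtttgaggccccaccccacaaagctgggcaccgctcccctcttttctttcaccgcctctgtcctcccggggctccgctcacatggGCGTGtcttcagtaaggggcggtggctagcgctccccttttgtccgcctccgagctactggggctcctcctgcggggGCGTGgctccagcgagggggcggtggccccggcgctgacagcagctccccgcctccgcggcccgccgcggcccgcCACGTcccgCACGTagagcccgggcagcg
Egln1: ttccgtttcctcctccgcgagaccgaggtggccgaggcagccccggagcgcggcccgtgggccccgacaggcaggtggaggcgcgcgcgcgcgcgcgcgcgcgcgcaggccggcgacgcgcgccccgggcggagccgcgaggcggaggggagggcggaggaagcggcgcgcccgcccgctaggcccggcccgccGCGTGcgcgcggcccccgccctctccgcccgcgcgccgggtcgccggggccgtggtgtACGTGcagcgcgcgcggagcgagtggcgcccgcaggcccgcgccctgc
Ak4: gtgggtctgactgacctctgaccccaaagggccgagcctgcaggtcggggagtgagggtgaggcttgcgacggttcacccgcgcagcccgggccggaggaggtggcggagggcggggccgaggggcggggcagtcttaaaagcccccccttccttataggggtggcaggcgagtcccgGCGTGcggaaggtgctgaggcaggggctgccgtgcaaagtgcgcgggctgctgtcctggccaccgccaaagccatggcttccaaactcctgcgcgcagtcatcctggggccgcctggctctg
Tpi1: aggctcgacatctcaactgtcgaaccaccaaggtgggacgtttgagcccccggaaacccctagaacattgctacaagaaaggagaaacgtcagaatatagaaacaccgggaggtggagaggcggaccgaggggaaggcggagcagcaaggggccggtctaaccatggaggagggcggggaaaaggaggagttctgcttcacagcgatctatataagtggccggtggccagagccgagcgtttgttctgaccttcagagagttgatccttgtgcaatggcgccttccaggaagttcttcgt
Ldha held 3 matches to ACGTG and 3 to GCGTG, where CACGTG counts once on each strand, and Pdk1 held 2 of each. Egln1 held 1 of each, and Ak4 held a single GCGTG. All 5 genes rose, by log2 fold changes from 0.84 for Egln1 to 1.23 for Ak4.

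Genes of the NF-κB and LPS response had estimates above 0 in M0CM against D10, but few passed the test. Of 32 tested, 3 rose and 0 fell (0.789% and 0.31% of all genes tested did), and all 32 estimates were above 0 with a median of 0.41. Within single rats 2 to 6 members were lower in M0CM, and 21 of the 32 were higher in all 4 rats. Besides Sod2 the members that rose were Nfkbiz, which encodes the nuclear IκB-zeta, and Lcn2, the siderophore-binding lipocalin. Nfkbiz was at 25.9, 23.7, 20.4 and 11.6 CPM in M0CM and 12.3, 11.9, 10.4 and 4.22 CPM in D10, and rat 8 was lowest in both media (log2 fold change 1.10 ± 0.20 SE, adjusted p = 0.0163). Lcn2 was at 2.79, 9.96, 4.05 and 0.204 CPM in M0CM and 0.167, 1.13, 0.438 and 0.0317 CPM in D10, higher in M0CM in each rat with a wide spread between rats (log2 fold change 3.24 ± 0.58 SE, adjusted p = 0.0177). Nfkbiz and Lcn2 did not pass the test without the term for the rat (adjusted p = 0.601 and 0.849). Of 22 genes of the oxidative stress list tested, 2 rose and 0 fell, with a median log2 fold change of 0.01. Among them Mt2A, a metallothionein gene, was at 21.1, 44.6, 27.7 and 11.5 CPM in M0CM and 8.15, 11.5, 4.92 and 3.87 CPM in D10 (log2 fold change 1.84 ± 0.36 SE, adjusted p = 0.0249). The adjusted p of these 3 genes with 1 rat left out in turn was 0.0292 to 0.133 for Nfkbiz, 0.0354 to 0.175 for Lcn2 and 0.0322 to 0.221 for Mt2A.

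Chemokine genes split. Of 17 tested, 1 rose and 3 fell, against 0.789% and 0.31% of all genes tested. Cxcl16, a membrane-bound chemokine that also takes up oxidized lipoprotein, was at 6.58, 12, 11.6 and 10.0 CPM in M0CM, against 4.85, 4.73, 4.23 and 3.27 CPM in D10, without overlap (log2 fold change 1.22 ± 0.17 SE, adjusted p = 0.00391, and 0.0106 to 0.0748 with 1 rat left out in turn). The neutrophil-attracting Cxcl1, Cxcl3 and Cxcl6 were higher in all 4 rats with log2 fold changes of 1.03, 2.12 and 2.11, and none passed the test (adjusted p = 0.294, 0.112 and 0.0701).

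The 3 chemokines that fell were Cxcl9, Cxcl10 and Cxcl11, the interferon-induced ligands of CXCR3, and all 3 were near the detection limit in both media. Cxcl9 had 0 counts in the 4 M0CM libraries, against 0.418, 0.376, 0.532 and 0.349 CPM in D10, 48 counts in all. Setting M0CM to a floor of 3 counts in total, it was at least 14.6-fold lower in M0CM (adjusted p = 0.0336). Cxcl11 had 1 count in M0CM and 40 in D10, a D10 to M0CM ratio of 36.5 with an exact 95% counting interval from 6.18 to 1480 (adjusted p = 0.00721). Cxcl10 was at 0.0797, 0.269, 0.0705 and 0.0816 CPM in M0CM and 0.962, 0.263, 0.752 and 0.540 CPM in D10, so that rat 3 did not share the fall (log2 fold change -2.28 ± 0.46 SE, adjusted p = 0.0297). The same 3 genes were at 3940, 2880 and 2280 CPM on average in M1CM of the same series, and whether the D10 counts came from those libraries was not tested. Of the 33 interferon-stimulated genes tested, 0 rose, and only these 3 fell. When each rat was left out in turn, the adjusted p was 0.0252 to 0.178 for Cxcl9, 0.00698 to 0.258 for Cxcl10 and 0.013 to 0.112 for Cxcl11.

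A few genes of lipid synthesis rose. Srebf1, the transcription factor of the fatty acid synthesis program, was at 340, 221, 207 and 327 CPM in M0CM, against 159, 125, 101 and 99.5 CPM in D10, without overlap (log2 fold change 1.18 ± 0.16 SE, adjusted p = 0.00353). Scd2, a stearoyl-CoA desaturase, was at 1940, 2240, 1980 and 1420 CPM in M0CM and 1260, 1570, 1030 and 638 CPM in D10, higher in every rat while rat 8 in M0CM lay below rat 3 in D10 (log2 fold change 0.81 ± 0.13 SE, adjusted p = 0.00941). These were 2 of 12 genes of fatty acid synthesis and desaturation tested (0.789% of all genes were called higher), and the list's median was 0.14. The cholesterol list went the other way in its estimates, with 21 of 26 below 0, a median of -0.26 and 0 calls. Its calls in the 8-library fit with the term for the rat were 1 higher and 6 lower, and as given above that fit called more genes in both directions over all genes tested. Neither Srebf1 nor Scd2 passed the test without the term for the rat (adjusted p = 0.439 and 0.874), and with 1 rat left out in turn their adjusted p was 0.0149 to 0.0608 and 0.0172 to 0.15.

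Transcripts of macrophage marker genes were found in the M0CM libraries at low levels. Of 25 macrophage and monocyte markers found in the file, 14 passed the filter on low counts, and 8 of these were called higher, against 0.789% of all genes tested. Some members pass the filter only through the M0CM libraries, so their count is a description of these libraries. Lyz2, which encodes lysozyme, was at 2.15, 2.65, 2.47 and 2.04 CPM in M0CM, 243 counts in all, against 0, 0.0751, 0.0313 and 0.0952 CPM in D10, 6 counts in all (log2 fold change 5.36 ± 0.57 SE, adjusted p = 0.00113). Mmp12, the macrophage elastase, had 107 counts in M0CM and 1 in D10, a ratio of 117 (exact 95% counting interval 20.6 to 4670). Msr1, a scavenger receptor of macrophages, had 90 counts in M0CM and 1 in D10, a ratio of 98.6 (17.3 to 3940). The lysosomal protease gene Ctss was at 0.478, 0.884, 0.458 and 0.286 CPM in M0CM and 0, 0.0376, 0.0939 and 0 CPM in D10 (log2 fold change 3.71 ± 0.47 SE, adjusted p = 0.00279). The mannose receptor gene Mrc1, the oxidase subunit gene Cybb, Laptm5 and Csf1r, the receptor of macrophage colony stimulating factor, had 124, 126, 169 and 178 counts in M0CM and 13, 7, 24 and 40 counts in D10. For these 8 genes every M0CM library exceeded every D10 library.

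The 11 markers below the filter had 109 counts in M0CM and 2 in D10 when summed. Ptprc, which encodes CD45, had 37 counts in M0CM and 0 in D10, the macrophage surface gene Adgre1 had 25 in M0CM and 0 in D10, and the adaptor gene Tyrobp had 9 in M0CM and 0 in D10, while Cd163 and Marco were at 0 in all 8 libraries. Gpnmb and Cd14 made up most of the list's sum and did not pass the test (adjusted p = 0.974 and 0.372). Without them the other 23 markers summed to 15.5 to 20.7 CPM in M0CM, against 3.27 to 4.97 CPM in D10. The same sum was 9.84 to 15.9 CPM in Pol1 and 35.4 to 89.9 CPM in M1CM, so a sum above D10 was not particular to M0CM. The highest single marker averaged 3.32 CPM in M0CM, 8.46 CPM in Pol1 and 33.6 CPM in M1CM. The other leukocyte markers, of T, B and granulocyte cells among others, summed to 1.31 to 2.00 CPM in M0CM and 0.814 to 1.27 CPM in D10. In such bulk libraries, few macrophages, macrophage RNA carried in the medium and low expression by the MSCs themselves cannot be told apart, nor can fewer cells of a type and less RNA per cell. A called gene outside the marker list had the same form, as C5ar1, the receptor of complement C5a, was at 0.718, 0.692, 0.916 and 0.408 CPM in M0CM with 2 counts in D10. Of the 107 genes that were higher, 24 had a mean below 1 CPM in D10. Without the term for the rat 4 of the 8 markers were called, and without rats 2, 3, 4 and 8 in turn 5, 4, 1 and 3 of them. Each medium then has 3 libraries, so some markers can fall below the filter, while others were tested and not called. Without rat 4, 48 of the 59 called genes named by rule were tested and lost their call, and 8 kept it.

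**Figure D3:**
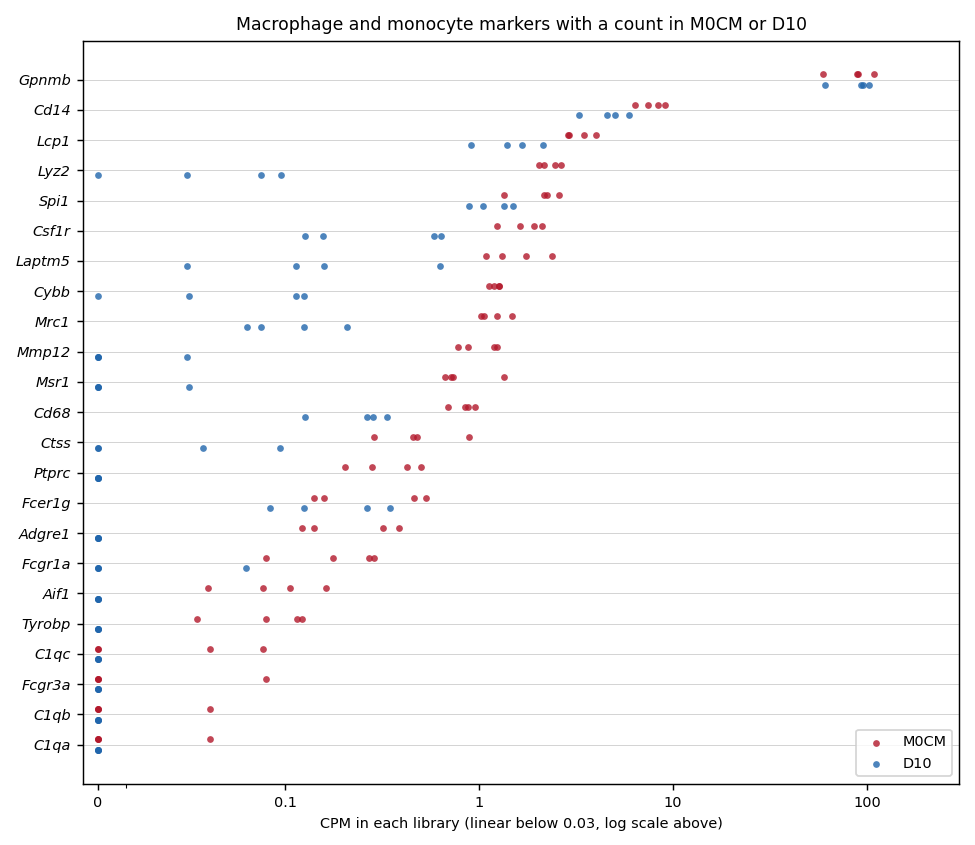
CPM of each macrophage and monocyte marker with a count in M0CM (red, upper points of a row) or D10 (blue, lower points), 1 point per library, on an axis that is linear below 0.03 and logarithmic above. Lyz2, Mrc1, Cybb and Msr1 sit near 1 to 3 CPM in M0CM and near 0 in D10, while Gpnmb is close to 90 CPM in both media.

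Of the 13 MSC markers, 2 rose and 0 fell, against 0.789% and 0.31% of all genes tested. Nt5e, which encodes CD73, the enzyme that makes adenosine outside the cell, was at 36.9, 64.2, 83.6 and 132 CPM in M0CM, against 14.9, 36.2, 27.9 and 33.8 CPM in D10. The lowest M0CM library, that of rat 2, was just above the highest D10 library (log2 fold change 1.44 ± 0.21 SE, adjusted p = 0.00391). Pdgfra, a receptor of platelet-derived growth factor, was at 479, 730, 352 and 210 CPM in M0CM and 258, 450, 210 and 147 CPM in D10, higher in every rat with overlapping groups (log2 fold change 0.72 ± 0.15 SE, adjusted p = 0.0317). Thy1 (CD90), Itgb1 (CD29) and Eng (CD105) had log2 fold changes of -0.16, -0.19 and 0.09 and were not called. Of 21 YAP-TEAD and immediate early genes tested, 2 rose and 0 fell, against 0.789% and 0.31% of all genes tested. Their median log2 fold change was 0.16. Egr1 was at 156, 161, 136 and 118 CPM in M0CM and 50.1, 77.5, 67.8 and 49.8 CPM in D10 (log2 fold change 1.24 ± 0.22 SE, adjusted p = 0.0177), and Egr2 rose by 1.14 on the log2 scale. With 1 rat left out in turn, the adjusted p was 0.0132 to 0.0791 for Nt5e, 0.0758 to 0.204 for Pdgfra, 0.0396 to 0.127 for Egr1 and 0.0688 to 0.198 for Egr2.

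Of the 42 genes that fell, 33 belonged to none of the gene lists. Gldn, gliomedin, an adhesion protein best known from nodes of Ranvier, had the smallest p among the genes that fell. It was at 14.8, 13.5, 147 and 308 CPM in M0CM of rats 2, 3, 4 and 8, against 90.8, 60.5, 633 and 887 CPM in D10. The rats differed by more than the media, yet the fall occurred in each of them (log2 fold change -2.07 ± 0.19 SE, adjusted p = 0.000381). Crispld2, a secreted protein that binds LPS, was at 47.0, 28.1, 26.3 and 27.3 CPM in M0CM and 87.7, 45.8, 46.2 and 46.6 CPM in D10, with rat 2 above the others in both media (log2 fold change -0.80 ± 0.09 SE, adjusted p = 0.00148). The matricellular genes Smoc2 and Smoc1 fell by 0.61 and 0.90 on the log2 scale (adjusted p = 0.00327 and 0.00346). In fits that each left out 1 rat, the adjusted p was 0.0145 to 0.0658 for Smoc2 and 0.00179 to 0.0798 for Smoc1. Neither Gldn nor Crispld2 passed without the term for the rat (adjusted p = 1 and 0.723).

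Muscle-type actins fell as well. Actg2, the smooth muscle gamma actin, was at 156, 40.2, 93.3 and 221 CPM in M0CM, against 302, 90.6, 249 and 367 CPM in D10 (log2 fold change -1.08 ± 0.12 SE, adjusted p = 0.00148). Acta1, the skeletal muscle actin, was at 3.03, 9.23, 11.1 and 7.76 CPM in M0CM and 9.45, 34.8, 33.2 and 28.0 CPM in D10 (log2 fold change -1.75 ± 0.24 SE, adjusted p = 0.00335). The lowest D10 library of both genes lay inside the range of M0CM. Actg2 was the only one of 19 tested contractile genes to be called, though 18 of the 19 estimates were below 0 and their median was -0.33. Cryab, a small heat shock protein abundant in muscle, was at 12.6, 15.7, 24.9 and 28.3 CPM in M0CM and 26.2, 39.7, 70.3 and 63.1 CPM in D10 (log2 fold change -1.28 ± 0.18 SE, adjusted p = 0.00375). Over fits that each left out 1 rat, the adjusted p was 0.0137 to 0.0533 for Acta1 and 0.0137 to 0.0684 for Cryab.

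Of 24 collagens and matrix genes tested, 0 rose and 2 fell, against 0.789% and 0.31% of all genes tested. Elastin (Eln) was at 8.33, 9.11, 63.5 and 41.3 CPM in M0CM and 20.8, 27.1, 360 and 142 CPM in D10, a log2 fold change of -1.86 (standard error 0.38, adjusted p = 0.0336), and periostin (Postn) fell by 0.44 on the log2 scale (adjusted p = 0.0369). Acan, which encodes the cartilage proteoglycan aggrecan, was at 46.9, 12.7, 28.7 and 556 CPM in M0CM and 152, 37.1, 65.1 and 930 CPM in D10, and rat 8 was far above the others in both media (log2 fold change -1.27 ± 0.22 SE, adjusted p = 0.0163). Alpl, the alkaline phosphatase of mineralizing cells, fell by 0.55 (standard error 0.11, adjusted p = 0.0273). Of 6 chondrogenic genes tested, 1 fell and 0 rose, with a median log2 fold change of 0.09. Of 8 osteogenic genes tested, 1 fell and 0 rose, with a median of -0.54. Sema3e, a guidance ligand, Nptxr, a neuronal pentraxin receptor, and Car3, a carbonic anhydrase, fell by 0.66, 0.74 and 1.87 on the log2 scale. With 1 rat left out in turn, the adjusted p was 0.0785 to 0.179 for Eln, 0.1 to 0.317 for Postn, 0.0544 to 0.0948 for Acan and 0.0354 to 0.258 for Alpl, and it was 0.0354 to 0.145 for Sema3e, 0.035 to 0.132 for Nptxr and 0.0513 to 0.105 for Car3. None of Eln, Postn, Acan and Alpl passed without the term for the rat (adjusted p = 1 for each).

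Genes of DNA replication had lower levels in M0CM without passing the test. Of 26 tested, 0 were called, 24 estimates were below 0, 19 genes were lower in all 4 rats, and the median was -0.57. The helicase subunit gene Mcm2 was at 27.6 ± 4.35 CPM in M0CM and 43.4 ± 3.55 CPM in D10 (SD, n = 4 each), without overlap (log2 fold change -0.66 ± 0.16 SE, adjusted p = 0.0807), and the origin licensing gene Cdc6 was at 1.66 ± 1.21 CPM in M0CM and 4.60 ± 1.71 CPM in D10 (log2 fold change -1.61 ± 0.40 SE, adjusted p = 0.0807). The 8-library fit with the term for the rat called 14 of the 26 lower, and DESeq2 on all libraries called 5. Both fits also called more genes lower over all genes tested than the main fit did, with the counts given in the section on processing. Mitosis genes showed no common direction over the rats. Their median log2 ratio was 0.41 in rat 2, -0.62 in rat 3, -0.73 in rat 4 and -0.01 in rat 8, with 26 of 27 higher in rat 2 and 27 of 27 lower in rat 4. Growth factors had 0 calls of 31 tested.

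**Figure D4:**
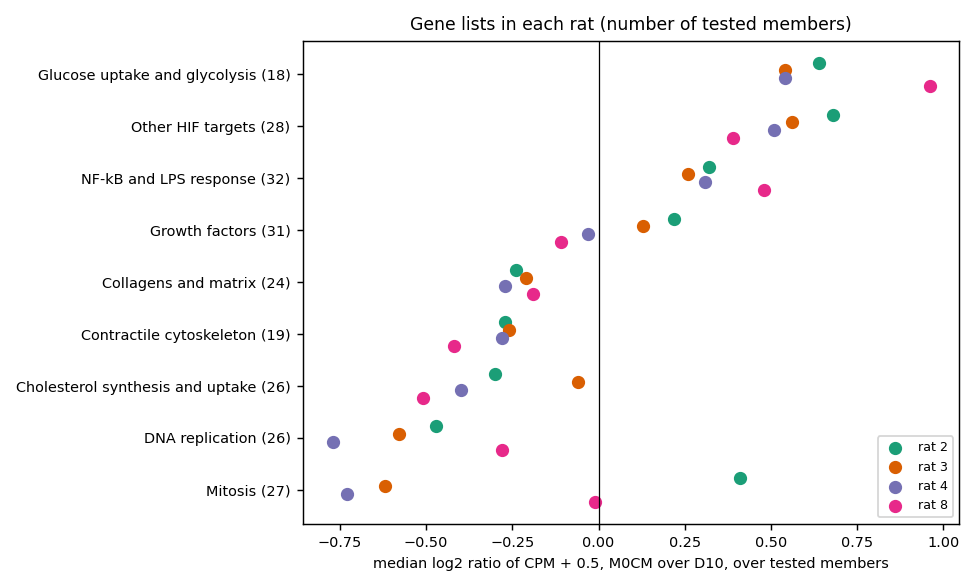
Median over the tested members of 9 gene lists of the log2 ratio of CPM + 0.5, M0CM over D10, 1 point per rat. Glycolysis, other HIF targets and the NF-κB list lie above 0 in each rat and DNA replication, contractile and matrix genes below 0, whereas the mitosis genes run from -0.73 in rat 4 to 0.41 in rat 2.

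Set beside the other conditions, most genes that rose in M0CM were higher still in M1CM. These comparisons share the D10 or the M0CM libraries and are given side by side. Of the 107 genes higher in M0CM, 69 were also higher in Pol1 than in D10 (16.3% of all genes tested were) and 88 in M1CM than in D10 (27.8% of all genes). Compared directly with M1CM, 62 of the 107 were lower in M0CM (26.3% of all genes were) and 22 higher (26.0%). For Sod2 the mean was 348 CPM in M0CM, 676 in Pol1, 2120 in M1CM and 78.2 in D10. Ak4 averaged 23.9 CPM in M0CM, 30.0 in Pol1, 124 in M1CM and 10.2 in D10, and Pgk1 averaged 790 CPM in M0CM, 671 in Pol1, 1560 in M1CM and 373 in D10. Of the 42 genes lower in M0CM, 33 were lower in Pol1 (16.2% of all genes were) and 36 in M1CM (27.4%), and Actg2 had 128 CPM in M0CM, 33.0 in Pol1, 6.83 in M1CM and 252 in D10.

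Of the 107 genes, 21 were higher in M0CM than in both Pol1 and M1CM, as were 9.5% of all genes tested (13% were higher in M0CM than in Pol1 and 26.0% higher than in M1CM). In 7 of these 21 fewer than 4 libraries outside M0CM reach the minimum of 10 counts, so they passed the filter only through their level in M0CM, and their place in this count is a description. Lyz2, Mrc1, Msr1, Laptm5 and C5ar1 are among these 7. The other members include Csf1r at low levels, and Nt5e, Srebf1, Scd2 and Egr1 at higher ones. Mrc1 averaged 1.20 CPM in M0CM, 0.0583 in Pol1 and 0.118 in D10, with 0 counts in M1CM. Nt5e averaged 79.2 CPM in M0CM, 16.1 in Pol1, 38.9 in M1CM and 28.2 in D10 (log2 fold change of M0CM over M1CM 1.09, adjusted p = 0.000475, and over Pol1 2.22, adjusted p = 3.21e-06). Srebf1 averaged 274 CPM in M0CM, 147 in Pol1, 88.1 in M1CM and 121 in D10, higher in M0CM than in M1CM by 1.71 on the log2 scale (adjusted p = 1.15e-06). Egr1 averaged higher in M0CM than in M1CM as well (log2 fold change 0.86, adjusted p = 0.00496). Of the 42 genes that fell, 4 were lower in M0CM than in both Pol1 and M1CM, the CXCR3 ligands and Wnt4 (10.7% of all genes were lower than both, 13.4% lower than in Pol1 and 26.3% lower than in M1CM).

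**Figure D5:**
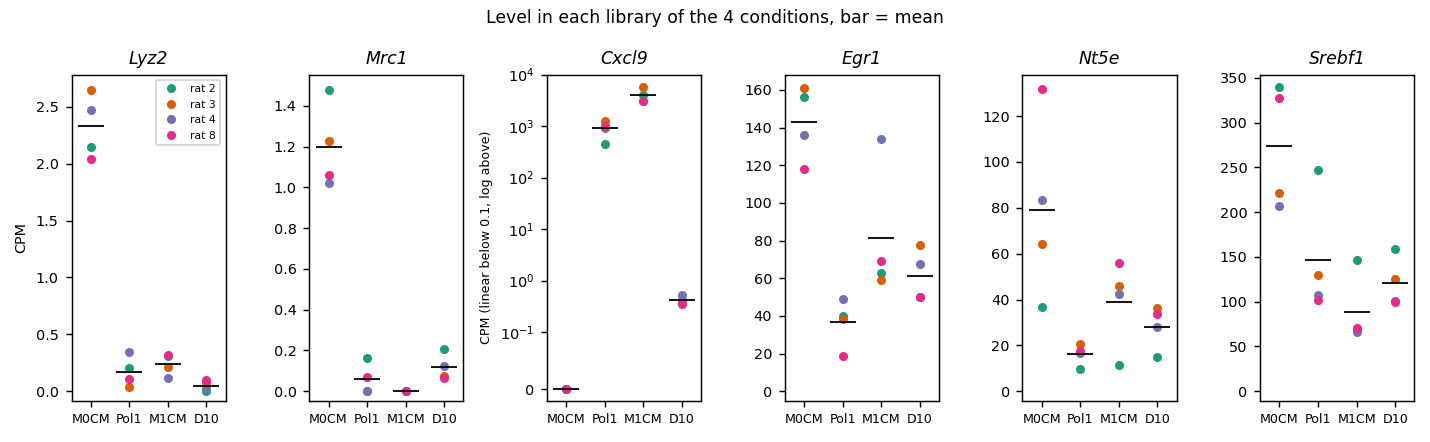
CPM of 6 genes in each library of M0CM, Pol1, M1CM and D10, with points coloured by rat and a bar at the mean. The Cxcl9 panel has an axis that is linear below 0.1 and logarithmic above. Lyz2, Mrc1, Egr1, Nt5e and Srebf1 have their highest mean in M0CM, and Cxcl9 has 0 counts there against means of 899 CPM in Pol1 and 3940 CPM in M1CM.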

How the data were processed

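RNA was measured in MSCs of 4 rats in 4 media, 16 libraries in all. The submitters' processing notes name TopHat2 2.0.12, Bowtie2 2.2.3, HTSeq 0.6.1 and DESeq 1.18.0. The authors deposited, for 26689 genes, read counts of each library that are not normalized and FPKM values computed from counts, gene length and library total. The p-values, adjusted p-values, log2 fold changes and calls of the authors' own comparisons, also deposited, were not used. The labels describe Pol1 as D10 with LPS and interferon gamma, whereas the methods describe an RPMI medium.

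Library totals were corrected with TMM factors (edgeR 4.0.16, R 4.3.3), and the 13556 genes reaching 10 counts in 4 or more libraries entered a two-sided quasi-likelihood test. The model held all 16 libraries and terms for condition and rat. P-values had Benjamini-Hochberg adjustment, with a threshold of 0.05 and no minimum fold. The fit was tested on simulated counts in which only M0CM differed from D10. In the data Pol1 and M1CM differ from D10 as well, so the simulation cannot tell which libraries should share the spread. Standard errors (SE) refer to log2 fold changes, and counting intervals cover counting error only. The labels name the rat of each library, and deviations from the condition means of M0CM and D10 libraries correlated at 0.597 to 0.728 for the same rat and at -0.519 to 0.191 for different rats.

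Genes named are the 15 higher and 10 lower of smallest p among those moving the same way in 4 rats, the 5 largest rises and 5 largest falls, called members of 30 gene lists, and all members of the marker, glycolysis and HIF lists. A gene that met this rule is not reported here. Other genes named were chosen after their values were seen. The members and lists were chosen with earlier results of these data known. Of the 149 called genes, 7 took their name from KEGG columns, and 4 without a usable name are counted only. Promoters are from RefSeq (GRCr8), matched by symbol, and coordinates of the files were not used.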

Additional observations from a re-analysis of the deposited data

Results flagged for a closer look

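For the 59 called genes named by rule, the 4 libraries of each medium were searched for 1 library set apart from the other 3 (Dixon's test), which chance alone does in about 1 of 20 groups. It did so in 15 of 118 groups. Rat 2 stood high for Crispld2 in both media (47.0 CPM in M0CM and 87.7 CPM in D10) and for Car3 in both (3.19 CPM in M0CM and 14.8 CPM in D10), and for Alpl in D10 (64.5 CPM). Rat 8 stood high for Acan in both (556 CPM in M0CM and 930 CPM in D10) and low for Aldoc in D10 (4.35 CPM). Rat 3 stood high in M0CM for Msr1 (1.35 CPM) and Cxcl10 (0.269 CPM), and in D10 for Egr2 (11.7 CPM). In genes with 1 or 2 counts in a medium the single library that holds them stands apart, as for Mmp12 (0.0313 CPM in rat 4 in D10), Msr1 (0.0317 CPM in rat 8 in D10), C5ar1 (0.0751 CPM in rat 3 in D10) and Cxcl11 (0.0399 CPM in rat 2 in M0CM).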

How the results depend on the processing

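The term for the rat and the libraries in the fit set how many genes were called, and no called gene named by rule turned its direction in the alternatives that tested it, which was 53 of the 59 genes with a filter of 50 counts and at least 56 in each other alternative. Without the replicate block (the term for the rat), 17 genes were higher and 2 lower, 19 of the 149 called genes remained, and 17 of the 59 named genes did. On the 8 libraries with the replicate block, 378 were higher and 304 lower, and 140 of the 149 remained, and on the 8 libraries without it, an alternative chosen after seeing the data, 14 were higher and 1 lower. DESeq2 1.42.0 with the replicate block called 265 higher and 149 lower, all 149 called genes among them. Median-of-ratios factors gave 113 and 41, library totals 144 and 37, no filter on low counts 130 and 51, and a filter of 50 counts 92 and 40. Leaving out 1 rat in turn gave 7 to 73 higher and 3 to 28 lower genes, the fewest without rat 4, and 69, 73, 10 and 20 of the 149 remained without rats 2, 3, 4 and 8. The cause of these differences was not tested. Every comparison rests on 4 rats, and genes below about 1 CPM rest on few counts in D10.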

Other observations

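Among the called genes outside the lists, chosen here after their values were seen, several encode cytokine receptors and genes downstream of them. Osmr, the oncostatin M receptor, averaged 123 ± 11.3 CPM in M0CM and 58.2 ± 21.8 CPM in D10 (SD, n = 4 each, log2 fold change 1.16 ± 0.17 SE, adjusted p = 0.00442, edgeR). Socs3, a feedback inhibitor of cytokine receptors, averaged 12.9 ± 1.04 CPM in M0CM and 5.96 ± 2.71 CPM in D10 (log2 fold change 1.21, adjusted p = 0.0364). Il4r and Il13ra1, chains of the interleukin 4 and 13 receptors, and Il1r1, the interleukin 1 receptor, rose by 0.84, 0.56 and 0.67 on the log2 scale. The LPS-binding protein gene Lbp averaged 167 ± 63.6 CPM in M0CM and 59.4 ± 37.3 CPM in D10 (log2 fold change 1.57, adjusted p = 0.0415). With 1 rat left out in turn, the adjusted p was 0.013 to 0.0779 for Osmr, 0.0137 to 0.206 for Socs3 and 0.053 to 0.22 for Lbp.

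Further leukocyte genes had the form of the macrophage markers. Cd53, Itgb2, Hcls1, Nckap1l and Itgad averaged 0.788, 1.73, 0.504, 0.568 and 0.794 CPM in M0CM, against 0.0397, 0.188, 0.0253, 0.0497 and 0.0420 CPM in D10, without overlap. Both subunits of the nitric oxide receptor fell, Gucy1a1 by 1.28 and Gucy1b1 by 1.01 on the log2 scale (adjusted p = 0.022 and 0.0128), and in M1CM these genes averaged 0.0944 and 0.384 CPM, against 14.9 and 15.8 CPM in D10. The glycogen synthase gene Gys1 rose by 0.56 (adjusted p = 0.022) and the glycogen-targeting subunit gene Ppp1r3g by 1.46 (adjusted p = 0.0121), beside Pygl.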
